A study of Mus musculus with 5 samples.

Results

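The smooth muscle contractile genes Acta2, Actg2, Myh11, Tagln, Cnn1, Smtn, Lmod1, Des and Myocd were followed across the 5 arrays. These 9 genes were taken by symbol from the platform's probe annotation, which gave them 14 of the 45037 probe sets that are not controls, and they are 9 of 18193 genes named there. They were chosen by their signals, since earlier values of these arrays had shown smooth muscle genes to be high on some of them, so their difference between sets of arrays is described without a test. Each array held total RNA labelled as coming from B220+ bone marrow cells, which are mostly developing B cells, enriched with magnetic beads from FVB mice at 4 weeks of age without treatment. Of the 5 arrays, 3 were labelled KA/KA, in which both copies of the IKKα gene carry a knocked-in, kinase-dead form, and 2 were labelled as wild-type littermates (WT). IKKα belongs to the NF-κB pathway. The comparison of KA/KA with WT asks which transcripts depend on its kinase activity in developing B cells. The labels do not say whether an array holds 1 mouse or a pool, so tests measure the spread between these arrays, which may be partly technical.

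Smooth muscle cells contract when calcium activates myosin light chain kinase and the phosphorylated myosin pulls on filaments of smooth muscle actin. The contractile genes are switched on together by serum response factor, which binds the CArG box, and by its partner myocardin. In lung these cells wrap the airways and the blood vessels. Heart muscle shares some of the genes: desmin is an intermediate filament of all muscle types, and the smooth muscle actin gene Acta2 is also used in the developing heart.

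Of the 9 genes, 5 had a promoter window in RefSeq (GRCm38.p6), of which the 250 bases before the annotated start were read. A CArG box is a run of 6 A or T bases between CC and GG, and it occurred in 1.47% of 32851 such windows and in 0 of these 5. A form with at most 1 G or C inside the run occurred at least once in 8.59% of windows and at least 2 times in 0.67%. The Acta2 window held 2 of this form, ccctatatgg at -84 to -75 and ccttgtttgg at -34 to -25 relative to the annotated start, and the other four windows held none. CATTCC, the letters bound by TEAD factors, occurred on either strand in 12.6% of windows and in those of Acta2, Lmod1 and Smtn. The E-box CANNTG was found in 66.2% of all windows and in those of Acta2, Cnn1, Des and Lmod1. Matches of different motifs did not overlap in the Acta2 window. The windows printed here, 5′ to 3′ on the gene's strand, are those of Acta2, the only one with CArG-like letters, of Lmod1, whose signal was higher on both low-spike KA/KA arrays than on WT 2, and of Smtn, which differed least between the sets of arrays. Capitals mark CArG-like and CATTCC letters.
Acta2, chr19:34255374-34255623, minus strand: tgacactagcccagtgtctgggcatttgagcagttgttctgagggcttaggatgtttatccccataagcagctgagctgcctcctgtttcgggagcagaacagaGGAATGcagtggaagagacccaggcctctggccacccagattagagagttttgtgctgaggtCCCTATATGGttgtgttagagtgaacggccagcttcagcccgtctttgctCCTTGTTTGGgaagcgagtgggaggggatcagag
Lmod1, chr1:135324563-135324812, plus strand: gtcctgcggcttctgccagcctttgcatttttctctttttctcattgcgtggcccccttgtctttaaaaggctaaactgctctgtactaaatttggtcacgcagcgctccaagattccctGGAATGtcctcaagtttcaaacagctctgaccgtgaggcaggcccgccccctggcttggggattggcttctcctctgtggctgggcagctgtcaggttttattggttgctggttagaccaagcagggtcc
Smtn, chr11:3539293-3539542, minus strand: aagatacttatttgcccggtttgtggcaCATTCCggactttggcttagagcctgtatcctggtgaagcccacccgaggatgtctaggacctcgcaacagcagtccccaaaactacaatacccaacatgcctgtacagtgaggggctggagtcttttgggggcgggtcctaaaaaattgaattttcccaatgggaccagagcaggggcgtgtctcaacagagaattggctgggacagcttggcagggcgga
These matches describe letters in 250 bases, and binding was not tested.

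Signals were scaled by array to a trimmed mean of 500, and they are given here as log2(signal + 16), on which a signal of 0 reads 4. The scale understates differences of dim probe sets. The arrays fell into 2 sets by 24 probe sets for bacterial poly-A transcripts, controls that carry no mouse RNA. Their median signal was 46.9 to 249 on 3 arrays (KA/KA 2, KA/KA 3 and WT 2, called low-spike) and 7305 to 11897 on the other two (KA/KA 1 and WT 1, called high-spike). These sets are not groups of the study, and each holds both genotypes. On the low-spike arrays, transcripts of the labelled cell type were low or near the bottom of the scale: the median of 7 early B cell markers was 5.74 to 6.25 there, against 12.56 and 12.79 on the high-spike arrays, and Rag1, the V(D)J recombinase, read 4.09 to 4.10 against 12.79 to 12.80. Some B-lineage signal was measured there, with Cd79b, of the B cell receptor, at 9.44, 11.10 and 9.39 on KA/KA 2, KA/KA 3 and WT 2, and 13.63 and 14.17 on KA/KA 1 and WT 1. The median of 5 lung epithelial markers was 14.03 to 14.39 on the low-spike arrays and 5.62 to 5.93 on the high-spike arrays. On these arrays fewer cells of a type and less RNA per cell cannot be told apart.

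All 9 genes were higher on every low-spike array than on either high-spike array, with each gene read from its brightest probe set by mean signal. The same held for 33.3% of all named genes. The difference exceeded 2 log2 units for 8 of the 9, against 10.6% of all named genes. Across the 9 genes the median difference of set means was 4.55 log2 units, from 1.20 for Smtn to 7.35 for Tagln, and over all named genes it was 0.14. Since this contrast was used to choose the genes, nothing is read from these counts.

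**Figure D1:**
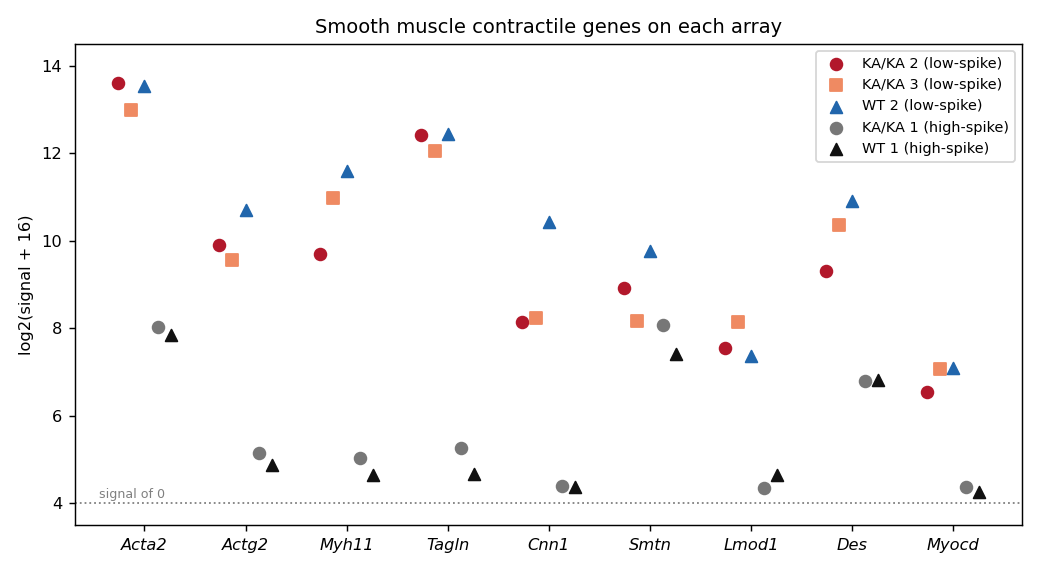
Level of the 9 smooth muscle genes, as log2(signal + 16) of the probe set of highest mean, with 1 point for each of the 5 arrays and no averaging. For every gene the 3 low-spike arrays lie above the 2 high-spike arrays, with the smallest gap for Smtn, where KA/KA 3 (8.16) lies just over KA/KA 1 (8.08).

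Both smooth muscle actins were higher on the low-spike arrays. Acta2, α-smooth muscle actin, read 13.61, 12.98 and 13.54 on KA/KA 2, KA/KA 3 and WT 2, and 8.03 and 7.84 on KA/KA 1 and WT 1. The low-spike arrays were alike for Acta2 (mean 13.38 ± 0.34, SD, n = 3), and the sets did not overlap, since the high-spike arrays averaged 7.94 ± 0.14 (SD, n = 2). The difference of 5.44 log2 units is 43.3-fold on the signal + 16 scale. Acta2 stood at the 99.1, 98.5 and 99.5 percentiles of all probe sets on the low-spike arrays and, unlike most of the other genes, remained above the median on the high-spike arrays (64.5 and 63.0). Its brightest probe set has the suffix _s_at, used on this platform for probes shared by more than 1 transcript, so related actin transcripts may contribute. Actg2, γ-actin of enteric smooth muscle, read 9.91, 9.56 and 10.71 on KA/KA 2, KA/KA 3 and WT 2, and 5.14 and 4.88 on KA/KA 1 and WT 1. For Actg2, too, the sets did not overlap, and the difference was 5.05 log2 units.

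Myh11 encodes the smooth muscle myosin heavy chain, which no other muscle type makes in quantity. It read 9.71, 10.99 and 11.59 on KA/KA 2, KA/KA 3 and WT 2, and 5.03 and 4.65 on KA/KA 1 and WT 1. Its low-spike values spread more widely than those of Acta2 (SD 0.96), with KA/KA 2 lowest, and the sets were 5.92 log2 units apart.

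Among the proteins that bind actin filaments, Tagln, which encodes transgelin (SM22α), had the largest difference between the sets. It read 12.42, 12.06 and 12.44 on KA/KA 2, KA/KA 3 and WT 2, and 5.25 and 4.66 on KA/KA 1 and WT 1, a difference of 7.35 log2 units. In rank, Tagln stood at the 97.4, 96.6 and 97.8 percentiles on the low-spike arrays and at the 21.7 and 14.2 percentiles on the high-spike arrays. Cnn1, calponin, which restrains myosin ATPase, read 8.13, 8.22 and 10.42 on KA/KA 2, KA/KA 3 and WT 2, and 4.38 and 4.37 on KA/KA 1 and WT 1. WT 2 stood apart from the other low-spike arrays here, and Cnn1 had the widest spread of the 9 genes (SD 1.29). Lmod1, leiomodin, which nucleates actin filaments, read 7.55, 8.14 and 7.37 on KA/KA 2, KA/KA 3 and WT 2, and 4.34 and 4.64 on KA/KA 1 and WT 1. It was the only one of the 9 with its lowest low-spike value on WT 2. Smtn, smoothelin, read 8.92, 8.16 and 9.75 on KA/KA 2, KA/KA 3 and WT 2, and 8.08 and 7.41 on KA/KA 1 and WT 1. The gap between its sets, from KA/KA 3 down to KA/KA 1, was smaller than the spread inside them (SD 0.80 and 0.48), and on the high-spike arrays it still stood at the 65.0 and 57.9 percentiles.

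Des, desmin, read 9.31, 10.37 and 10.91 on KA/KA 2, KA/KA 3 and WT 2, and 6.80 and 6.82 on KA/KA 1 and WT 1. Its high-spike values lay in the middle of all probe sets on those arrays, while those of Myh11, Tagln, Cnn1, Actg2, Lmod1 and Myocd lay between the 3.94 and 21.7 percentiles. Myocd, the coactivator myocardin, was dim throughout. It read 6.53, 7.06 and 7.09 on KA/KA 2, KA/KA 3 and WT 2, which is still below the median of all probe sets, and 4.38 and 4.26 on KA/KA 1 and WT 1.

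The remaining probe sets of these genes were dim and separated the sets of arrays less clearly. Of the 9 genes, 5 had 1 probe set, 3 had 2 and Acta2 had 3. Of the 5 probe sets that were not the brightest of their gene, 2 kept all low-spike arrays above the high-spike arrays, where 28.6% of all probe sets did, and their differences ran from -0.24 to 1.78 log2 units. The second probe set of Myocd read 4.52, 4.68 and 4.51 on KA/KA 2, KA/KA 3 and WT 2, and 4.35 and 5.26 on KA/KA 1 and WT 1, so that the highest value was on a high-spike array. The second probe set of Myh11 read 5.89, 6.55 and 6.20 against 4.47 and 5.96, and the third of Acta2 read 6.31, 4.22 and 6.79 against 4.55 and 5.77, both with overlap. The second probe set of Des, at 6.44, 6.45 and 6.71 against 5.11 and 5.66, had no overlap but only a difference of 1.14.

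**Figure D2:**
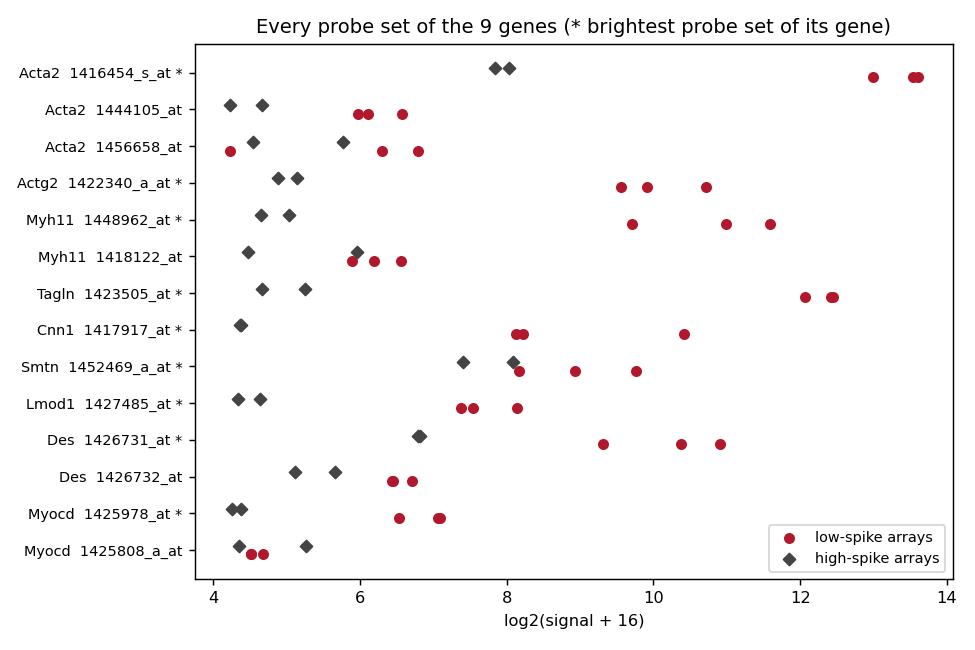
All 14 probe sets of the 9 genes, with 1 point per array on the log2(signal + 16) scale, circles for the 3 low-spike and diamonds for the 2 high-spike arrays; asterisks mark the brightest probe set of each gene. The sets overlap for 3 probe sets, of Acta2, Myh11 and Myocd, all of them dim.

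Inside the low-spike arrays, 7 of the 9 genes were lower on both KA/KA arrays than on WT 2, 1 (Lmod1) was higher on both, and Acta2 lay on either side. Over all named genes 37% were lower on both and 31.8% higher on both. The median difference of the 9 genes was -0.80 for KA/KA 2 minus WT 2 and -0.55 for KA/KA 3 minus WT 2, where all named genes had -0.04 and -0.03. For the mean of both KA/KA arrays minus WT 2 the median of the 9 was -0.98. Only 1 WT array is in this set, so the spread of WT is unknown and the counts describe these 3 arrays.

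Cnn1 was the only one of the 9 lower by over 1 log2 unit on both KA/KA arrays, by a rule met by 2.73% of all named genes. Its differences were -2.29 for KA/KA 2 and -2.19 for KA/KA 3. Smtn (-0.83 and -1.59) and Actg2 (-0.80 and -1.16) differed more on KA/KA 3. Myh11 (-1.88 and -0.60) and Des (-1.60 and -0.54) differed more on KA/KA 2. For Tagln (-0.03 and -0.38), Acta2 (0.07 and -0.55) and Myocd (-0.56 and -0.03) at least 1 of the 2 differences was close to 0, and Lmod1 stood at 0.17 and 0.77. The contractile genes therefore did not shift by one amount: on the same arrays Cnn1 and Tagln, both filament-binding proteins of smooth muscle, differed by over 2 and by under 0.4 log2 units. In the high-spike pair most of these genes were near the bottom of the scale. There KA/KA 1 minus WT 1 ran from -0.30 for Lmod1 to 0.67 for Smtn. Its median was 0.19 over the 9 genes and 0.05 over all named genes.

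**Figure D3:**
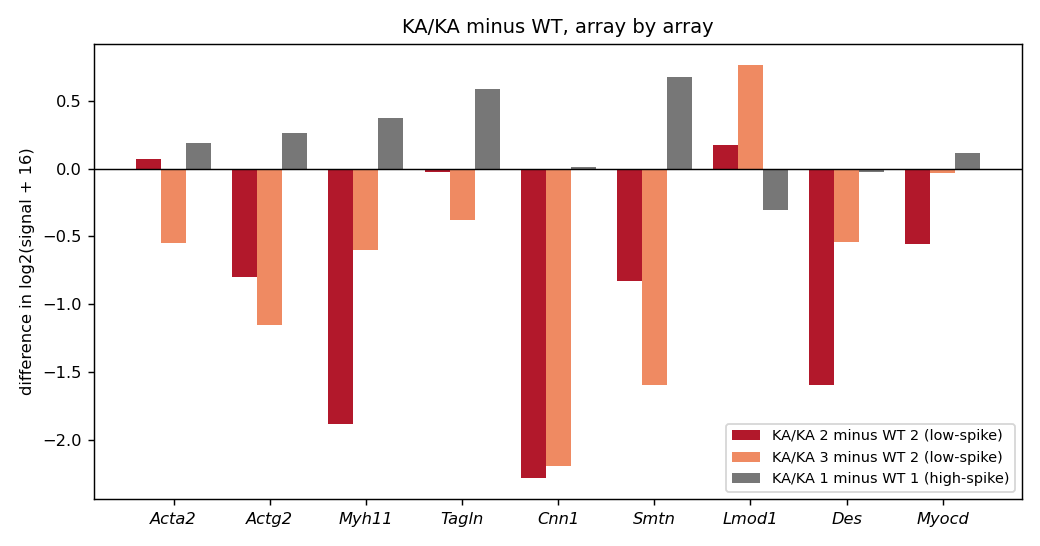
KA/KA minus WT for each gene in log2(signal + 16), with bars for KA/KA 2 and KA/KA 3 against WT 2 (low-spike arrays) and for KA/KA 1 against WT 1 (high-spike arrays); each bar is 1 array minus 1 array and has no error. Cnn1 has the longest bars (-2.29 and -2.19), and Lmod1 is the only gene with both low-spike bars above 0.

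With the array set as a block, limma called 0 of 11392 genes higher and 0 lower in KA/KA at an adjusted p of 0.05 (0%), and 311 (2.73%) had an unadjusted p under 0.05. Of the 9 genes, 7 passed the filter on dim probe sets, which Lmod1 and Myocd did not, and 0 of the 7 reached either threshold. The fitted KA/KA minus WT difference was -1.27 ± 0.58 for Cnn1 (± SE, 3 KA/KA and 2 WT arrays, limma unadjusted p = 0.0711, adjusted p = 0.999). The 95% interval of the Cnn1 difference ran from -2.70 to 0.15. For the other genes the fit gave -0.62 ± 0.44 for Des, -0.55 ± 0.56 for Myh11, -0.45 ± 0.41 for Actg2 and -0.40 ± 0.52 for Smtn. Acta2 (-0.05 ± 0.29) and Tagln (0.14 ± 0.31) had the smallest errors, and their intervals, -0.78 to 0.67 and -0.63 to 0.90, leave room for differences under 1 log2 unit either way. In the fit without a filter, Lmod1 stood at 0.14 ± 0.44 and Myocd at -0.12 ± 0.39. The block assumes 1 genotype difference for both sets. A fit with a separate difference for each set was added after the values were seen and called 0 of 11392 genes (0%). In it 658 genes (5.78%) had an unadjusted p under 0.05, among them 1 of the 7 smooth muscle genes tested, Cnn1. For Cnn1 it gave -2.25 ± 0.79 for low-spike minus high-spike (limma unadjusted p = 0.0462, adjusted p = 0.754). Cnn1 was near the bottom of the scale on both high-spike arrays (4.38 and 4.37), where a lower value could hardly show. The -2.25 therefore mostly repeats the low-spike difference and cannot decide whether the sets differ.

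Heart muscle transcripts differed between the same low-spike arrays. All 14 heart markers read highest on WT 2, then on KA/KA 3, and lowest on KA/KA 2, an order found in 22% of all named genes and in 4 of the 9 smooth muscle genes (Myh11, Cnn1, Des and Myocd). The summed signal of the heart markers was 2502 on KA/KA 2 and 13517 on KA/KA 3, against 66017 on WT 2, and on KA/KA 1 and WT 1 it was 5868 and 7460, mostly from Myl4. Myh6, the α-myosin heavy chain of the atria and the adult mouse ventricle, read 5.68 and 11.66 on KA/KA 2 and KA/KA 3 against 13.43 on WT 2. Actc1, cardiac actin, read 9.75 and 11.13 against 13.60. The summed signal of the 9 smooth muscle genes was 21286 and 17345 on KA/KA 2 and KA/KA 3 against 26514 on WT 2. Most of that sum came from Acta2 (12468 and 8091 against 11859) and Tagln (5451 and 4261 against 5554). The medians of the 9 genes were 9.31 and 9.56 against 10.71, and those of the 14 heart markers 6.35 and 9.55 against 11.83. The medians of 12 fibroblast and matrix markers were spread less than those of the heart markers (11.29 and 11.70 against 12.67). Their summed signal had another order, highest on KA/KA 2: 64464 there and 34546 on KA/KA 3, against 58939 on WT 2. Endothelial markers had medians over 8 genes of 10.02 and 12.23 against 12.35. The summed signal of 11 skeletal muscle markers was 709 and 983 on KA/KA 2 and KA/KA 3 against 5270 on WT 2. Among them Mb, myoglobin, which heart muscle also makes, read 6.20 and 8.22 against 11.67, and Ckm read 6.96 and 7.91 against 10.43. Myod1 and Myog, which define the skeletal lineage, read 4.51 to 5.98 on these arrays. The listed myosin genes Myh1, Myh2 and Myh4 read 4.75 to 5.82 there. The part of these other cell types in the differences of Myh11, Des and Cnn1 was not tested.

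**Figure D4:**
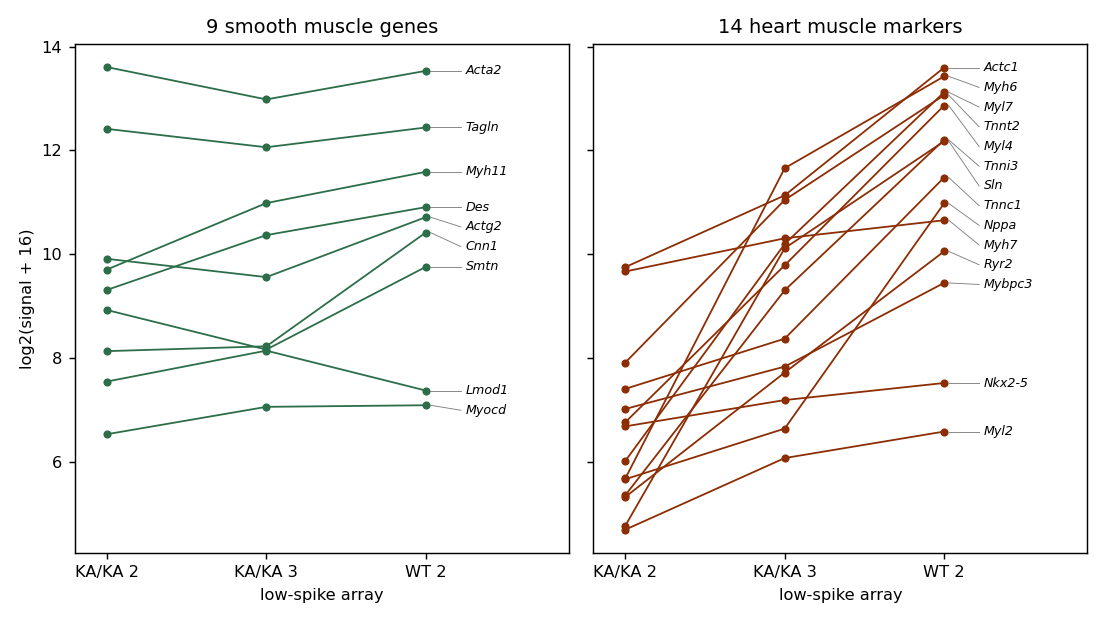
Levels on the 3 low-spike arrays as log2(signal + 16), with 1 line per gene for the 9 smooth muscle genes (left) and 14 heart muscle markers (right). Every heart marker is highest on WT 2 and lowest on KA/KA 2, while the smooth muscle lines are flatter and 5 of the 9 do not keep that order.

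Of 24 measured regulators of contraction beyond the 9 genes, 21 did not overlap and were higher on the low-spike arrays, where 33.3% of all named genes were, and 12 were so by over 2 log2 units, against 10.6%. Csrp1 did not overlap and was lower. Among the brightest, Cnn2, a calponin of many cell types, read 12.97 to 13.05 on the low-spike arrays against 12.58 and 12.78 on the high-spike arrays, and Flna, filamin A, overlapped (11.75 to 12.44 against 12.10 to 12.33). Vcl, vinculin of cell adhesions, read 12.29 to 13.33 against 11.10 and 11.48. Mylk and Ppp1r14a were picked after their values were seen. Mylk, myosin light chain kinase, read 12.29, 12.30 and 12.99 against 9.29 and 9.05, and Ppp1r14a, an inhibitor of myosin phosphatase, read 9.40, 10.29 and 11.22 against 4.19 and 4.38. Of 23 regulators tested for genotype with limma, 0 passed in either direction and 0 had an unadjusted p under 0.05, and 15 of 24 were lower on both low-spike KA/KA arrays than on WT 2, against 37% of all named genes.

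Of 10 measured genes of serum response factor, its cofactors and their partners, which include adhesion adaptors, 4 did not overlap and were higher on the low-spike arrays, close to the 33.3% of all named genes. Their median difference was 0.24, and that of all named genes 0.14. Srf itself read 9.31, 9.20 and 9.22 on KA/KA 2, KA/KA 3 and WT 2, and 9.62 and 8.85 on KA/KA 1 and WT 1. Klf4, which represses contractile genes in vascular smooth muscle, differed by 3.52 log2 units (low-spike minus high-spike), whereas the adhesion adaptors Lims1 (-0.07) and Ilk (0.49) differed less. In limma's genotype test 0 of 9 passed, and 1 (Tead1, -0.67 ± 0.25) had an unadjusted p under 0.05.

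The genes whose profile over the 5 arrays, centred on each gene's own mean, lay closest to the median profile of the 9 genes were Ecscr, Pmp22, Tmem47, Pof1b and Shroom3. Their Euclidean distances were 0.30 to 0.41 log2 units over 5 arrays, smaller than those of the 9 genes themselves, which ran from 0.93 for Actg2 to 3.63 for Smtn. Ecscr, a surface protein of endothelial cells, read 11.09, 11.40 and 12.08 on KA/KA 2, KA/KA 3 and WT 2, and 6.99 and 6.97 on KA/KA 1 and WT 1. Likeness over 5 arrays in 2 sets is a description and rests mostly on the split of the arrays.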

How the data were processed

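Expression was measured with Affymetrix whole-genome mouse arrays from 150 ng of total RNA, per the labels' protocols. The authors deposited intensities of 45101 probe sets on 5 arrays in 1 table. MAS5 is named without a version in the submitters' processing notes. The deposited intensities are linear, with a trimmed mean of 500 on each array (2% left out at each end), so log2(signal + 16) was computed and not rescaled. The 64 control probe sets were left out. Genes were named from the platform annotation (34958 probe sets with 1 symbol, 932 with several, left unnamed). Of several probe sets, the one with the highest mean stood for its gene. Array sets were split at a median log2 signal of 10 over the poly-A control probe sets.

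limma 3.58.1 in R 4.3.3 fitted genotype with the array set as a block (lmFit, eBayes with intensity trend, two-sided, Benjamini-Hochberg over 11392 genes, threshold 0.05), on probe sets whose mean reached the median over all of them. With 3 against 2 arrays an exact permutation test of 1 gene cannot go below 0.1 and was not run. A run on simulated data, with the same spread for every gene, checked that the fit returned the median size of planted differences. It does not give error rates for the real genes, whose spreads differ. Alternatives covered the constant, scaling, probe set choice, filter, block and each array left out. The members and gene lists were chosen with earlier results of these data known. The named genes are the members, the brightest 2 or 3 of each list and the 5 nearest profiles. Any other is said to be picked later, stands as a marker or was called in an alternative fit. Srf, Csrp1 and Tead1 are named outside this rule. Mkl1 and Mkl2 in the lists are Mrtfa and Mrtfb in the annotation. The transcript level of the mutated gene is not reported here. The number of arrays limits the precision.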

Additional observations from a re-analysis of the deposited data

How the results depend on the processing

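The median difference of the 9 genes between low-spike and high-spike arrays, 4.55, kept its direction in all 10 alternatives. It was 5.53 with a constant of 1, 2.98 with 64 and 3.19 with the mean of each gene's probe sets, and 3.80 to 4.94 with 1 array left out (3.80 without WT 2). For Myh11, Tagln, Cnn1, Actg2, Lmod1 and Myocd the high-spike values lie near the bottom of the scale, where the constant weighs most; for Acta2, which is brighter, constants of 1 and 64 gave 5.53 and 5.19 against 5.44. Inside the low-spike arrays the median of the members' KA/KA minus WT differences, -0.98, stayed negative in 9 alternatives. All 9 rest on the same WT 2 array. The median was -0.66 with the mean of probe sets, -0.80 without KA/KA 3 and -0.55 without KA/KA 2. Leaving out KA/KA 1 or WT 1 cannot change the median, which does not use them. Without WT 2 it has no value.

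In limma's genotype test 0 members passed in any of the 16 alternatives to the fit, with 2 to 9 members tested in each. Cnn1 was not tested with a constant of 1, with the strictest filter (7052 genes), or without KA/KA 2, KA/KA 3 or WT 2. Those fits therefore say nothing of Cnn1. With the mean of probe sets the 7 members tested had the same differences as in the main fit. That alternative is no test of probe set choice for them. The count over all genes was 0 except with the replicate block (1 gene, Xist), without KA/KA 3 (1 gene, Xist) and without KA/KA 2 (5 genes: Ms4a4b, Ccl8, Marco, Retnla and Rnase2a), so it ran from 0 to 5 with 1 array left out. Of the 103 member values in these fits, 13 turned their sign. Beyond which arrays each fit compares, the cause was not tested. Without any block Acta2 stood at 0.85, Myh11 at 0.45 and Actg2 at 0.41. These values also carry the difference between the array sets, since 2 of 3 KA/KA arrays and 1 of 2 WT arrays were low-spike. Under the replicate block Acta2 stood at 0.13, as it did without KA/KA 3. Only KA/KA 3 is numbered 3, so that block sets it apart and both fits give the same differences, Xist included (6.13). Tagln was -0.016 with a constant of 64 and -0.20 on the low-spike arrays alone. With 1 array left out, values ran from -0.24 to 0.19 for Acta2, -1.24 to 0.38 for Myh11, -0.98 to 0.26 for Actg2, -1.21 to 0.67 for Smtn and -0.20 to 0.59 for Tagln. The positive ends came without WT 2, which leaves genotype to the high-spike pair, and the negative ends without KA/KA 1 or WT 1. On the low-spike arrays alone Cnn1 stood at -2.24, with only 1 WT array and so no spread of WT to test it against. Arrays numbered 1 and 2 in both genotypes deviated together (r = 0.825 across 11392 genes, which are not replicates). With 2 pairs that also are the array sets, the numbers are not taken as pairs of animals. Dim probe sets, Myocd above all, limit what can be said of the high-spike arrays.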

Other observations

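Of 9 markers of mural cells, the smooth muscle relatives on small vessels, 7 did not overlap and were higher on the low-spike arrays, where 33.3% of all named genes were. Their median difference was 2.34 log2 units, against 0.14 over all named genes. Inside the low-spike arrays 5 of the 9 were lower on both KA/KA arrays than on WT 2 and 1 was higher on both. The shares of all named genes were 37% and 31.8%. The 1 higher was Rgs5, a G-protein regulator of pericytes, with 12.92 and 11.83 on KA/KA 2 and KA/KA 3 against 10.07 on WT 2. In the high-spike pair Rgs5 read 7.72 on KA/KA 1 against 8.38 on WT 1. Notch3, a receptor of vascular smooth muscle, read 10.33 and 10.75 on KA/KA 2 and KA/KA 3 against 11.22 on WT 2. Neither passed limma's test, which called 0 of 8 mural cell genes (0 also at an unadjusted p under 0.05).

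Of 9 measured receptors through which smooth muscle is stimulated or relaxed, 4 did not overlap and were higher on the low-spike arrays and 2 were lower, against 33.3% and 23.6% of all named genes, and limma's genotype test called 0 of 4 tested (0 also at an unadjusted p under 0.05). Tbxa2r, the thromboxane receptor, overlapped (8.41, 8.72 and 8.45 on KA/KA 2, KA/KA 3 and WT 2, and 8.57 and 7.96 on KA/KA 1 and WT 1). Agtr1a, an angiotensin receptor, read 8.30 and 9.67 on KA/KA 2 and KA/KA 3 against 9.84 on WT 2. Ednrb, an endothelin receptor, read 8.87 and 10.82 on KA/KA 2 and KA/KA 3 against 11.96 on WT 2. Htr2b, a serotonin receptor named after its values were seen, read 10.25 on KA/KA 2 and 6.76 on KA/KA 3, against 5.65 on WT 2.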
